A study of Mus musculus with 3 samples.

Results

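Krüppel-like factors (Klf) are transcription factors that bind GC-rich and CACCC elements through a C-terminal array of zinc fingers. The 10 members described here, Klf2, Klf3, Klf4, Klf5, Klf6, Klf7, Klf8, Klf9, Klf10 and Klf13, were found by gene symbol among 22180 genes of Affymetrix Mouse Gene 2.0 ST arrays, and all 10 were matched. They set the factors with a known role in naive pluripotency, Klf2, Klf4 and Klf5, beside relatives without one. Mouse pluripotent stem cells were cultured in N2B27 medium in 3 ways, and total RNA of each culture was measured on 1 array. Mouse embryonic stem cells (mESCs) of the line EB3 received 20 ng/ml of the TGF-beta family ligand Activin A together with the MEK inhibitor PD0325901 at 2 µM over 64 days (Activin+PD). A second EB3 culture received the same dose of PD0325901 and the GSK3 inhibitor CHIR99021 at 2 µM over 34 days (2i). Epiblast stem cells (mEpiSCs) induced from EB3 mESCs received Activin A at 20 ng/ml and the growth factor bFGF at 12 ng/ml, and their time in culture is not given. EB3 is an established mESC line, so all 3 cultures share 1 cell line. MEK inhibition was common to both mESC cultures and Activin A to the Activin+PD and mEpiSC cultures.

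In mESCs, Klf2, Klf4 and Klf5 bind many of the same sites near pluripotency genes and can stand in for each other in self-renewal. Klf4 is induced by LIF through STAT3, and KLF2 protein is marked for degradation by ERK signalling, so MEK inhibitors favour it. Klf2 and Klf4 are known as markers that are lost when naive mESCs pass to the primed state of mEpiSCs, and forced expression of either can return mEpiSCs to the naive state. Arrays read RNA only, so a change in protein stability is not visible in these values. With 1 array per culture nothing was tested, and "higher" and "lower" describe these 3 arrays. In a bulk sample, fewer cells of a type and less RNA per cell cannot be told apart.

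The promoters of the 4 members that were at least 2-fold lower in mEpiSCs than in both mESC cultures are shown. The members were chosen by this fold alone and not by likeness of pattern. Of all genes compared, 4.96% were that much lower against 2i and 5.37% against Activin+PD. Each is the 250 bases before the annotated start in RefSeq (GRCm38.p6), written 5′ to 3′ along the gene. RefSeq promoter entries were matched for 8 of the 10 members. Capitals mark the GC box GGGCGG, the MEF2-type motif of CTA and TAG with 4 free bases between them and the STAT-type motif TTCNNNGAA, on either strand.
Klf2, chr8:72318812-72319061, plus strand: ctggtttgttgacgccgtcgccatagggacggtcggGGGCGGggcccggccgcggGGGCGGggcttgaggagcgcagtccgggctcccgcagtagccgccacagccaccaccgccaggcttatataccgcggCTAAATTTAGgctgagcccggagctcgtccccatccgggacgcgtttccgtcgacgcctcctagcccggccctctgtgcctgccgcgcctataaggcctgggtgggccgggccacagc
Klf4, chr4:55532476-55532725, minus strand: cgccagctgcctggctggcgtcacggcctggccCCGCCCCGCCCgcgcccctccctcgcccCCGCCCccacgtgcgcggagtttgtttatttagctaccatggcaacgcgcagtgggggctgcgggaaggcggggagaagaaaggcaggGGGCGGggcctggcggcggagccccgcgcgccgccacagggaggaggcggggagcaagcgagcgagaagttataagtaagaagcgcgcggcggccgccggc
Klf8, chrX:153237498-153237747, plus strand: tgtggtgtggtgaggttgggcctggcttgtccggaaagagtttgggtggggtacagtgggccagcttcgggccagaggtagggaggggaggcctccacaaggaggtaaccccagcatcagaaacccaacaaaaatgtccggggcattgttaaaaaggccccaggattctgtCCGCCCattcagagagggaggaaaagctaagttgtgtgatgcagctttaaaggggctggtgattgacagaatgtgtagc
Klf9, chr19:23140976-23141225, plus strand: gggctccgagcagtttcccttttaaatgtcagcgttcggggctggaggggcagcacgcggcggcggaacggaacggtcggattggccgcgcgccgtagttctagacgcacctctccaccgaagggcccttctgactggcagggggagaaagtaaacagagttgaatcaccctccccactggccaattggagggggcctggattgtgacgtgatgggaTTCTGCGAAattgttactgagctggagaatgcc
The Klf2 window held 2 GC boxes and the run CTAAATTTAG at -118 to -109 from the start. The Klf4 window held 4 GC boxes, of which 2 overlap by 1 base, and the Klf8 window held 1. The Klf9 window held no GC box and 1 STAT-type match at -33 to -25. Klf8 had a second annotated start, whose window also held 1 GC box.

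Of 32851 RefSeq promoters cut to the same 250 bases, 32.7% held a GC box, 3.2% a MEF2-type match and 7.02% a STAT-type match. The CACCC box CACCC, present in 52.0% of them, occurred once each in the Klf2, Klf8 and Klf9 windows shown and was absent from that of Klf4. The TCF/LEF-type motif CTTTGA, in 13.8% of promoters, was found in none of the 9 member windows. Among the members that were not 2-fold lower in both comparisons, the Klf3 window held 6 GC boxes, that of Klf13 held 3, and those of Klf6 and Klf7 held 1 each. These matches are descriptions of letters, and no binding was measured. The GC content was 71.2% for Klf2, 74% for Klf4, 54.8% for Klf8 and 59.6% for Klf9, against a median of 52.4% over all promoters. The window at the second Klf8 start had a GC content of 62% and held 3 CACCC boxes. Klf2 and Klf4 thus lay in more GC-rich windows than Klf9 and than Klf8 at either start, although all 4 were lower in mEpiSCs. High GC content was not particular to Klf2 and Klf4. Among the members not 2-fold lower in both comparisons, it was 78.4% for Klf3, 71.6% for Klf13, 64.8% for Klf6 and 59.2% for Klf7.

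Across the series, the median intensity was 50.9 to 51.9 on the 3 arrays. Background was taken from 1400 probe sets for olfactory or vomeronasal receptors, as their 95th percentile. Its intensity was 45.4 in Activin+PD, 48.2 in 2i and 47.6 in mEpiSCs. All 10 members were above background on every array, so each difference below is measured on both sides. Genes with at least 2 probe sets above background on every array gave the error of a probe set as the spread of their disagreement. This spread was 0.24 on the log2 scale between the mESC cultures, 0.33 between mEpiSCs and 2i and 0.30 between mEpiSCs and Activin+PD. It covers the error of probe sets, and the variation between cultures was not measured. The labelled cell states were set beside markers. Zfp42 stood at a log2 level of 11.45 in Activin+PD, 11.18 in 2i and 5.94 in mEpiSCs. Fgf5 stood at 7.08, 5.60 and 10.88, and both had the largest mEpiSC to 2i difference of their lists. In mEpiSCs, 9 of 11 naive regulators were at least 2-fold lower than in 2i and 4 of 8 primed and formative genes higher. Among all genes compared, 4.96% were lower and 4.53% higher. Otx2 stood at 7.82 in Activin+PD, 5.55 in 2i, not above background there, and 8.37 in mEpiSCs. Zic2 stood at 8.83, 8.94 and 9.10.

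**Figure D1:**
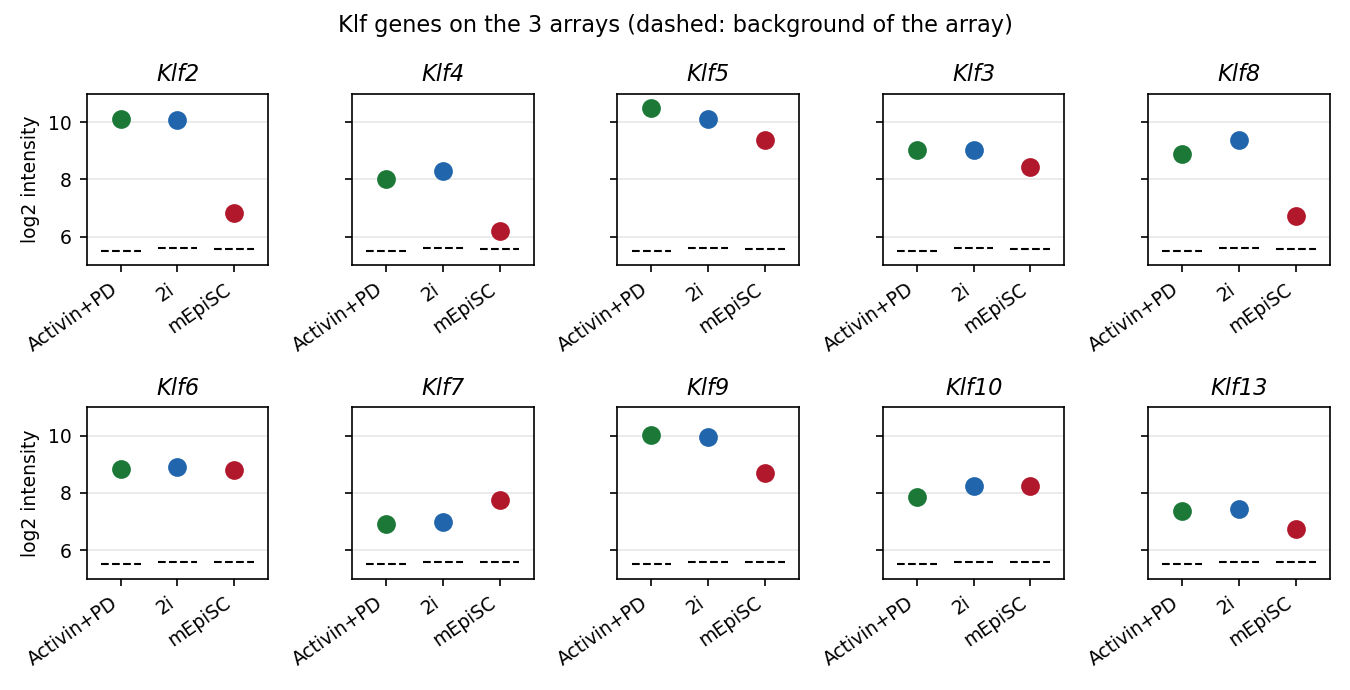
Log2 intensity of each Klf gene (vertical axis) in each culture, 1 point per array, with the background of each array as a dashed line. Arrays are to be compared within a gene and not between genes; the mEpiSC array is the lowest for 8 of the 10 genes, by over 2-fold against both mESC arrays for Klf2, Klf4, Klf8 and Klf9, and by less than the probe set spread for Klf6, whose sign against Activin+PD turned after repeated quantile normalisation.

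Klf2 RNA was the member that differed most between the mEpiSC and mESC arrays. Its intensity was 1097 in Activin+PD, 1069 in 2i and 112 in mEpiSCs (probe set 17502440, chromosome 8). The mESC arrays lay together and far above the mEpiSC array, which was still above its background. In mEpiSCs the level was 9.51-fold lower than in 2i and 9.76-fold lower than in Activin+PD, log2 differences of -3.25 and -3.29. Of 14202 genes compared between mEpiSCs and 2i, 43 had a lower difference than Klf2. The mESC cultures differed by 0.038, less than the probe set spread.

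Klf4, one of the original reprogramming factors, followed the same direction at a smaller size. Its intensity was 261 in Activin+PD, 313 in 2i and 74.2 in mEpiSCs (probe set 17425401, chromosome 4). The mEpiSC value was 0.64 above background on the log2 scale, the smallest margin of any member on any array. It was 4.22-fold lower in mEpiSCs than in 2i (-2.08) and 3.51-fold lower than in Activin+PD (-1.81). Activin+PD stood 0.27 below 2i, and this difference was 1.09 times the probe set spread.

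Klf5, which also acts in the trophectoderm of the blastocyst, was also lowest in mEpiSCs, by less than Klf2 and Klf4. Its intensity was 1435 in Activin+PD, 1107 in 2i and 657 in mEpiSCs (probe set 17302397, chromosome 14). The order was Activin+PD, 2i and mEpiSC from high to low, with neighbours apart by 0.37 and 0.75 on the log2 scale, both more than the probe set spread. The difference of mEpiSCs from 2i, -0.75, was within 2-fold, whereas that from Activin+PD, -1.13, was past it. The naive trio was therefore unequal in the primed culture: Klf2 and Klf4 were at least 2-fold lower than in both mESC cultures, and Klf5 was so only against Activin+PD.

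Klf8 and Klf3 encode repressors that recruit the corepressor CtBP. Klf8 had an intensity of 479 in Activin+PD, 663 in 2i and 105 in mEpiSCs (probe set 17539004, chromosome X). Although it has no known naive role, its log2 difference between mEpiSCs and 2i, -2.66, was larger than that of Klf4, and 92 genes had a lower one. Against Activin+PD it was -2.19. The difference between the mESC cultures, -0.47, was the largest of the 10 members and 1.92 times the probe set spread, with 2i higher. Klf3 had an intensity of 526 in Activin+PD, 523 in 2i and 345 in mEpiSCs (probe set 17437674, chromosome 5). It was lower in mEpiSCs by 0.60 and 0.61, within 2-fold, and level between the mESC cultures.

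Klf9, Klf10 and Klf13 belong to the group of Klf repressors that bind the corepressor Sin3A. Klf9, a gene induced by glucocorticoid and thyroid hormones, had an intensity of 1046 in Activin+PD, 1002 in 2i and 418 in mEpiSCs (probe set 17358214, chromosome 19). It was 2.40-fold lower in mEpiSCs than in 2i (-1.26) and 2.50-fold lower than in Activin+PD (-1.32), and both mESC arrays lay within the probe set spread of each other. Klf13 had an intensity of 166 in Activin+PD, 173 in 2i and 106 in mEpiSCs (probe set 17491788, chromosome 7). Its log2 differences from 2i and Activin+PD, -0.70 and -0.64, were about those of Klf3.

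Klf10, also called TIEG1, was first described as an early gene of TGF-beta signalling. Its intensity was 231 in Activin+PD, 305 in 2i and 306 in mEpiSCs (probe set 17316690, chromosome 15). The Activin+PD array was the low one, 0.40 below 2i and 0.40 below mEpiSC on the log2 scale, or 1.63 and 1.34 times the probe set spread. Its 2i and mEpiSC levels differed by 0.0032, a difference whose sign turned to -0.018 when arrays were centred on their medians. Klf10 was thus not higher in either of the cultures that held Activin A than in 2i, by any amount above the probe set spread.

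Klf6 and Klf7 form a pair of activators with similar sequences outside the zinc fingers, Klf6 being widely expressed and Klf7 known for its role in developing neurons. Klf6 had an intensity of 453 in Activin+PD, 476 in 2i and 447 in mEpiSCs (probe set 17285000, chromosome 13). Its 3 values were within 0.089 on the log2 scale, the narrowest range of the members. Klf7 had an intensity of 120 in Activin+PD, 126 in 2i and 218 in mEpiSCs (probe set 17223766, chromosome 1), and was higher in mEpiSCs by 0.79 and 0.85. A second Klf7 probe set was below background on every array, at 26.3, 26.5 and 29.9. Klf7 was the only one of the 10 members that was higher in mEpiSCs than in both mESC cultures by more than the probe set spread.

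**Figure D2:**
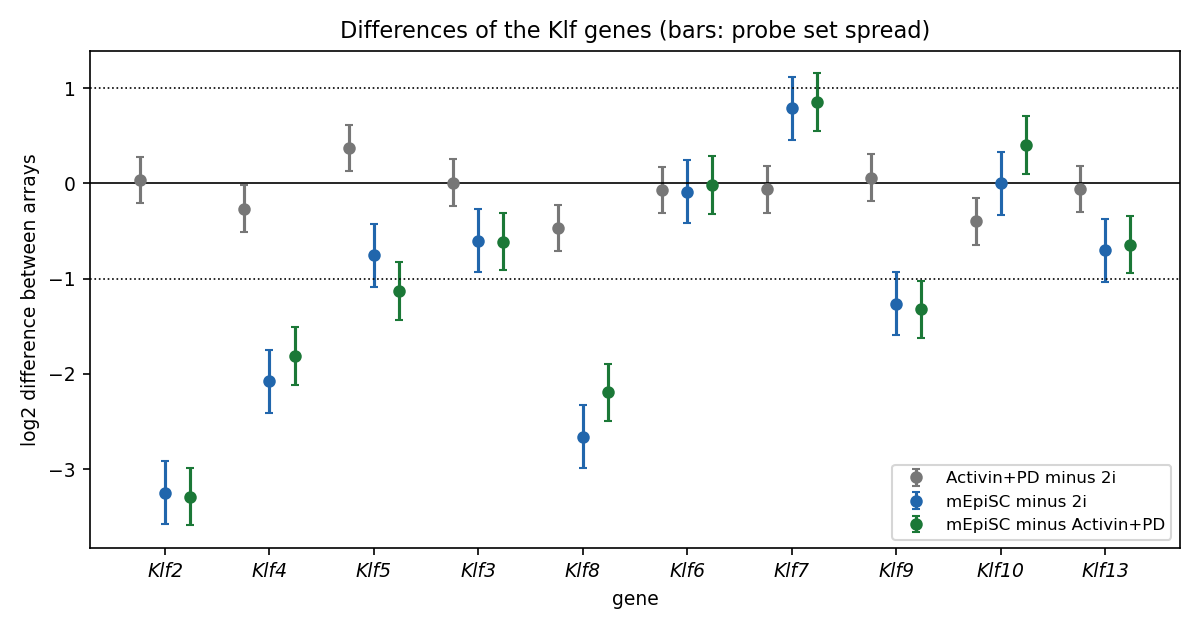
Log2 difference between arrays (vertical axis) for each Klf gene in 3 comparisons, with bars of 1 probe set spread to either side and dotted lines at a 2-fold difference. Klf2, Klf8, Klf4 and Klf9 lie below the lower dotted line in both mEpiSC comparisons, Klf5 in that with Activin+PD, and no gene lies outside the lines for Activin+PD minus 2i.

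The mESC cultures with Activin A and with the GSK3 inhibitor had log2 differences of 0.47 or less in the family. Between Activin+PD and 2i, 0 of 10 members were at least 2-fold apart, where 2.19% of 14059 genes compared were, 1.37% higher and 0.818% lower, so that a count of 0 among 10 genes is near the background. The member median was -0.061, against -0.0068 for all genes, and 6 of 10 members differed by less than the probe set spread. Klf5 was higher in Activin+PD, at 0.37, while Klf8, Klf10 and Klf4 were higher in 2i. A difference as large as that of Klf8 in either direction was seen for 10.6% of all genes compared, as large as that of Klf10 for 14.3% and of Klf5 for 16.2%. These cultures differed in days of culture, 64 against 34, as well as in the factors added, and the 2 cannot be told apart.

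Between the primed and naive cultures, 4 of 10 members were at least 2-fold lower and 0 higher in mEpiSCs than in 2i, where 9.50% of 14202 genes were apart, 4.96% lower and 4.53% higher. The member median was -0.73 against 0.031 for all genes. Of the naive trio 2 of 3 were lower, and of the 7 relatives 2 of 7, Klf8 and Klf9. Against Activin+PD, 5 of 10 were at least 2-fold lower and 0 higher, where 8.95% of 14397 genes were apart, 5.37% lower and 3.58% higher. The member median there was -0.88 against 0.041 for all genes. These comparisons share the mEpiSC array, so they are not independent. The mEpiSC culture also held bFGF and no PD0325901, and its days of culture are not given. Cell state, the factors added and days of culture cannot be told apart there. The members nearest the 2-fold line, a log2 difference of -1, were Klf5 and Klf9 just beyond it, at -1.13 against Activin+PD and -1.26 against 2i, and Klf5 and Klf13 just short of it, at -0.75 and -0.70 against 2i. Klf7 was nearest to the line at 1, at 0.85 against Activin+PD.

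**Figure D3:**
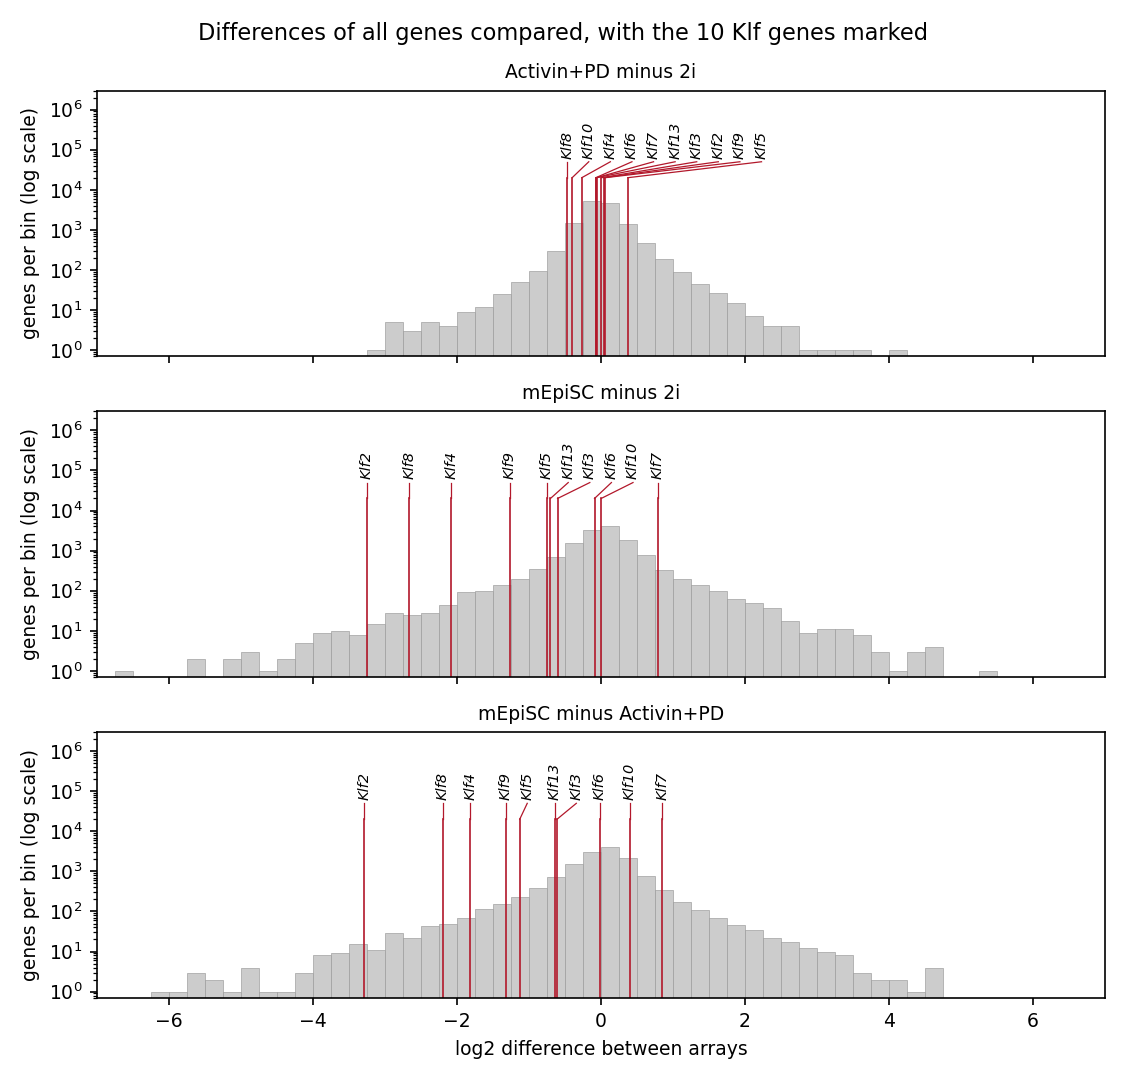
Number of genes per bin of log2 difference (vertical axis on a log scale, bins of 0.25) in the 3 comparisons, with the Klf genes as red lines. The members bunch near 0 for Activin+PD minus 2i and spread toward negative differences in both mEpiSC comparisons, with Klf2 at -3.25 and -3.29.

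The other Klf genes and the related Sp genes share the zinc finger domain with the members. Of the 7 further Klf genes, Klf1, Klf11, Klf12, Klf14, Klf15, Klf16 and Klf17, 0 were 2-fold apart in any comparison. From 2.19% to 9.50% of all genes compared were apart, so a count of 0 among 7 genes is near the background. Klf17, a factor known from human naive cells, stood at a log2 level of 6.47 in Activin+PD, 6.14 in 2i and 5.83 in mEpiSCs, with differences of -0.31 from 2i and -0.64 from Activin+PD in mEpiSCs. Klf16 stood at 8.43, 8.47 and 8.59. Their median difference was -0.18 between mEpiSCs and 2i and 0.054 between mEpiSCs and Activin+PD. Of the 8 Sp genes on the array, Sp5, a target of Wnt/beta-catenin signalling, stood at 5.98 in Activin+PD, 7.42 in 2i and 7.16 in mEpiSCs, 1.44 lower in Activin+PD than in 2i and 1.18 higher in mEpiSCs than in Activin+PD. It was the 1 Sp gene 2-fold apart in either of these comparisons. Sp9 was lower in mEpiSCs than in 2i by at least 1.23, since it was not above background in mEpiSCs. Sp1, expressed in most cells, stood at 8.18, 8.11 and 8.08, and Sp3 was lower in mEpiSCs than in 2i by 0.42.

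Beside the naive regulators outside the family, the Klf differences were moderate. Of 11 such genes, 9 were at least 2-fold lower in mEpiSCs than in 2i, with a median of -3.09, and Klf2 at -3.25 lay near that median. Of all genes compared there, 4.96% were that much lower and 4.53% higher. Zfp42 was at -5.24, Tbx3 at -4.06 and Nr5a2 at -3.88, and Tfcp2l1 was lower by at least 4.64. Nanog, at -1.99, was close to Klf4. Between Activin+PD and 2i the list had 1 of 11 members apart, Gbx2 at -1.07, and a median of 0.097. There 2.19% of all genes compared were apart. Of 7 core pluripotency factors, Sox2 was lower in mEpiSCs, by 1.17, and the other 6, Pou5f1 among them, were within 2-fold. Of 8 primed and formative genes, 4 were at least 2-fold higher in mEpiSCs than in 2i and 0 lower. The 4 were Fgf5 at 5.28, Pou3f1 at 2.81, Dnmt3b at 2.05 and Otx2, higher by at least 2.78. Dnmt3a of the same list was at -0.49 there and at -1.20 between mEpiSCs and Activin+PD. In that second comparison 4 of the 8 were at least 2-fold higher and 1 lower, against 3.58% and 5.37% of all genes compared. For Activin+PD minus 2i, 2 genes of this primed list passed the 2-fold line, both with the larger value in Activin+PD. Fgf5 was at 1.48 there, and Otx2 differed by no less than 2.22. The other 6 stayed within the line, and 1.37% of all genes compared passed it in that direction.

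Among listed genes of the pathways that act on Klf4 and Klf2, only those of the LIF receptor subunits were 2-fold apart. Lifr and Il6st, which encode the subunits of the LIF receptor upstream of Klf4, were lower in mEpiSCs than in 2i by 1.76 and 2.07. Stat3 stood at 8.08 in Activin+PD, 8.35 in 2i and 8.33 in mEpiSCs, and Socs3, a STAT3 target, at 6.21, 6.41 and 6.52. Of the 8 genes of this list, 2 were at least 2-fold lower and 0 higher in mEpiSCs than in 2i. Among all genes compared, 4.96% were that much lower and 4.53% higher. The kinases MEKK2, MEKK3, MEK5 and ERK5 with the MEF2 factors drive Klf2 in endothelial cells. Of their 6 genes above background, 0 were 2-fold apart in any comparison, with Mef2a at 0.58 and Mef2d at -0.53 between mEpiSCs and 2i. There 9.50% of all genes compared were apart, so a count of 0 among 6 genes is near the background. RNA levels do not report the activity of these kinases, and their part in the Klf2 difference was not tested. Mef2c was below background on every array.

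Several Klf genes belong to early response programmes, and listed genes of such programmes were set beside them. Of 14 immediate early genes, 6 were at least 2-fold higher in mEpiSCs than in 2i, 0 lower and 8 within 2-fold. Among all genes compared, 4.53% were that much higher and 4.96% lower. The differences of the listed genes ran from 0.21 to 2.53, with a median of 0.96. Egr1 was higher by 2.53, Zfp36 and Myc by 2.13 and Jun by 1.77. In the same comparison Klf6 stood at -0.089, Klf10 at 0.0032, Klf2 at -3.25 and Klf4 at -2.08, 4 members that can respond as immediate early genes in other cells. Of 9 feedback genes of Activin and TGF-beta signalling, 5 exceeded their 2i level by 2-fold or more in Activin+PD and 4 were within 2-fold. Of all genes compared, 1.37% were that much higher in Activin+PD. Lefty1 was at 2.64, Lefty2 at 2.22, Tdgf1 at 1.30, Pmepa1 at 1.06 and Bambi at -0.61. The TGF-beta early gene Klf10 was at -0.40 in that comparison and at 0.40 between mEpiSCs and Activin+PD. No difference between the Klf genes and these lists was tested.

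**Figure D4:**
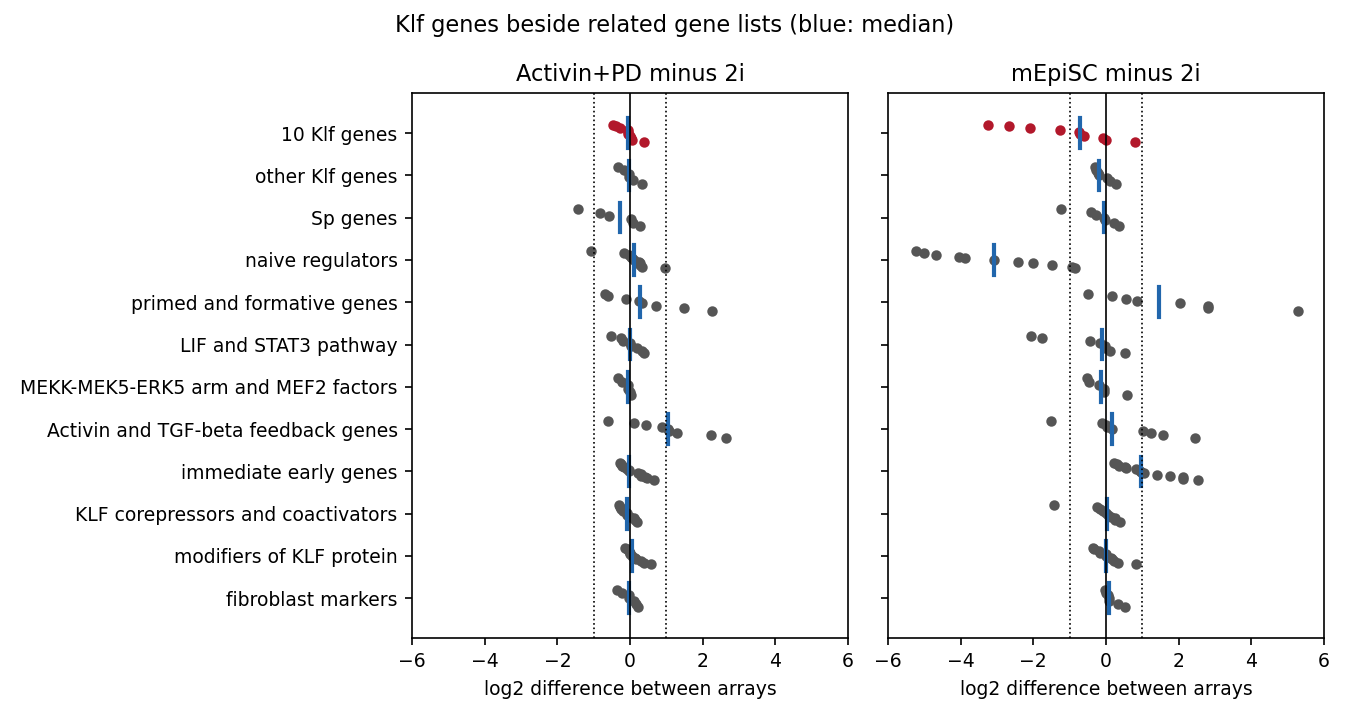
Log2 difference (horizontal axis) of each gene above background on either array, as 1 point per gene, for the 10 Klf genes (red) and 11 related lists (grey), with list medians in blue and dotted lines at 2-fold. For mEpiSC minus 2i the Klf median of -0.73 lies between that of naive regulators, -3.09, and those of the other Klf genes, -0.18, and the Sp genes, -0.066.

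Genes for partners of the Klf proteins were 2-fold apart about as often as all genes. Of 10 corepressor and coactivator genes, 1 was apart between mEpiSCs and 2i, where 9.50% of all genes were, and 9 were within 2-fold, including Ctbp1 at 0.15, Ctbp2 at 0.38 and Sin3a at -0.080. The exception was Kat2b, which encodes the acetyltransferase PCAF, at a log2 level of 8.95 in Activin+PD, 8.81 in 2i and 7.39 in mEpiSCs. Of 11 genes for ubiquitin ligases and other factors that act on KLF proteins, 0 were 2-fold apart in any comparison. From 2.19% to 9.50% of all genes compared were apart, so a count of 0 among 11 genes is near the background. Wwp1 of this list, which encodes a ligase for KLF2 and KLF5, stood at 9.92, 9.86 and 9.85.

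Fibroblast markers were measured because fibroblasts express several Klf genes and often serve as feeder cells. Of 11 markers, 0 were 2-fold apart in any comparison, and their summed intensity was 587 in Activin+PD, 588 in 2i and 666 in mEpiSCs. Between mEpiSCs and 2i 9.50% of all genes compared were apart, so this count of 0 is near the background. Dcn, Lum, Postn and Fap were below background on every array, and Col1a1 stood at 6.47, 6.37 and 6.90. The part of other cell types in the Klf differences was not tested.

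Each member lies on a chromosome of its own, so none shares a neighbourhood with another. The nearest protein-coding genes on the array to either side of each member, 20 in all, were looked up after the values were seen. Of the 15 that were above background on at least 1 array, 0 were 2-fold apart in any comparison. Between mEpiSCs and 2i 9.50% of all genes compared were apart, so a count of 0 among 15 genes is near the background. Ap1m1 and Eps15l1 beside Klf2 stood at -0.57 and -0.23 between mEpiSCs and 2i. Rragb and Ubqln2 beside Klf8 stood at 0.076 and 0.35, Smc5 beside Klf9 at 0.31, and Rad23b beside Klf4 at -0.022. Klf12, the gene next to Klf5 in that order, was at -0.18.

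Within the family, patterns over the 3 arrays were set side by side after each gene's mean was removed, using the root mean square distance in log2 units. Of 45 pairs of members, Klf3 and Klf13 were the closest at 0.041, and Klf2 and Klf7 were the farthest at 1.93. Klf4 was closer to Klf8, at 0.24, than to Klf2, at 0.64, and Klf5 was closest to Klf9, at 0.21. Outside the family, the genes most like Klf2 among 14516 were Rnf125, a ubiquitin ligase gene, at 0.055, Zfp992 at 0.072 and Dnajc6, which encodes auxilin, at 0.086. For Klf4 they were Rpp25 at 0.018, the small heat shock protein gene Hspb1 at 0.024 and the autophagy kinase gene Ulk1 at 0.032. For Klf5 they were Lcor at 0.0053, B4galnt3 at 0.019 and Sap30 at 0.019. Patterns within 0.25 of Klf2 were held by 23 genes, of Klf4 by 144 and of Klf5 by 974. With only 3 arrays such distances describe a shape of 3 points.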

How the data were processed

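Mouse Gene 2.0 ST arrays (Affymetrix) measured RNA of 3 cultures, 1 array each. Analysis with GeneSpring GX 11.5 is named in the series' design text, and RMA in the submitters' processing notes. The authors' deposited values are intensities on a linear scale, from 18.9 to 11623, judged from the values, and no source states whether a constant was added first. Log2 of each deposited intensity was taken.

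Of 33793 probe sets, 23521 had 1 symbol in the platform annotation, 1814 had several and were not used to name genes, and 8458 were not listed there. Symbols were updated through Entrez identifiers, and the probe set with the highest mean stood for each gene. A gene was compared where either array was above background and counted as apart at 2-fold. The number of arrays limits the precision, so no p-value or standard error was computed. The probe set spread is the standard deviation of the disagreement between the 2 brightest probe sets of 497 genes, divided by the square root of 2.

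The members and the 15 lists, with 130 of 136 listed genes on the array, were chosen with earlier results of these data known. Named genes were the members, all further Klf genes, some Sp genes and the 3 genes most like each of Klf2, Klf4 and Klf5. From the lists, some genes that were 2-fold apart were named, not always those with the largest differences. Some flanking genes and list genes within 2-fold were also quoted, and these were chosen after their values were seen. The promoter motifs were likewise chosen with the sequences in view. The counting was tested on simulated data. Python 3.11.15 with pandas 2.3.3 was used.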

Additional observations from a re-analysis of the deposited data

How the results depend on the processing

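The 30 differences of members were recomputed under 7 alternatives, 210 values in all: another background percentile, no filter, the mean over probe sets, median centring, repeated quantile normalisation, 16 subtracted from each intensity, and values below background raised to it. None moved a member across the 2-fold line, and 209 stayed within the probe set spread of the reported value. The exception was Klf7 between mEpiSCs and Activin+PD, at 0.52 with its dim second probe set averaged in, against 0.85. Much of this agreement was fixed beforehand, because all 10 members were above background on every array. Another background percentile, no filter and values raised to background therefore could not change a member difference. The mean over probe sets could change only Klf7, the member with a second probe set. Signs turned for 2 values near 0: Klf10 between mEpiSCs and 2i was -0.018 after median centring, and Klf6 between mEpiSCs and Activin+PD was 0.023 after repeated quantile normalisation. With 16 subtracted, Klf4 between mEpiSCs and 2i was -2.35. The counts of members apart were the same under these 7 alternatives. At 1.5-fold in place of 2-fold, 8 members were apart in mEpiSCs against 2i, 7 lower and 1 higher, in place of 4, where 2807 genes were apart in place of 1349. Against Activin+PD 8 were apart in place of 5, where 2830 genes were apart in place of 1289. For Activin+PD minus 2i the member count stayed at 0, where 996 genes were apart in place of 308. No paired analysis was possible because each group holds 1 array. Without replicates the spread between cultures is unknown, and Klf4 in mEpiSCs, nearest to background, is the member whose fold difference is most open to an added constant.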

Other observations

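Lineage markers beside the Klf genes went in several directions. Among 6 trophectoderm markers, where Klf5 is also known to act, Cdx2 stood at a log2 level of 5.84 in Activin+PD, 8.64 in 2i and 5.91 in mEpiSCs. Gata3 stood at 7.71, 6.15 and 6.46, and Tfap2c at 7.30, 7.24 and 6.18. Among the neural markers, where Klf7 is known to act, Nes stood at 7.25, 7.29 and 9.21. Tubb3 went the other way between mEpiSCs and 2i, with a log2 difference of -1.18 against 1.92 for Nes. Of 9 extraembryonic endoderm markers, Gata6 was higher in mEpiSCs than in 2i by at least 2.83-fold, and the other members were within 2-fold or below background on both arrays.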
